A study of Mus musculus with 7 samples.

Results

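The 2 layers of ear skin were compared through the RNA of wild-type (WT) mouse ears, with 1 library of dermal cells set against 1 library of epidermal cells. A gene was a member of the comparison when it reached 1 FPKM (fragments per kilobase of transcript, scaled to the mapped fragments of the library) in either library, which held for 13843 of the 22552 gene symbols in the table. Both libraries came from mice labelled Wt/Wt, of strain CD1/C3H, at postnatal day 50, and the RNA was extracted from cells purified by flow sorting. The antibodies and gates of the sort, the number of animals and their sex are not given in the sources used here. The same study holds 2 further dermis and epidermis pairs made the same way: ear skin of mice labelled Wt/Koa, which carry 1 copy of the Koa allele, and dorsal skin of Wt/Wt mice. A tail dermis library has no epidermal partner and served only to recognise failed estimates. With 1 library in every group, the spread between animals is unknown and no p-value is given.

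Skin is built of an outer epithelium, the epidermis, and a connective tissue beneath it, the dermis, with a basement membrane between them. Keratinocytes divide in the basal layer of the epidermis, move outward while they change their keratins, and end as the cornified layer that holds water in and microbes out. Dermal fibroblasts lay down collagen, elastic fibres and proteoglycans, and the dermis also houses vessels, nerves, pigment cells and immune cells. The ear of the mouse holds, in addition, a thin plate of elastic cartilage between its skin faces. Hair follicles and sebaceous glands grow down from the epidermis into the dermis.

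Differences are given as dermis minus epidermis on the log2(FPKM + 1) scale, where adding 1 FPKM keeps low values stable and understates the change of low genes. Short RNAs (200 members) have unstable FPKM because of their length, and Col1a2 and Col3a1, chains of the main fibrillar collagens, were listed at 0 FPKM in WT ear dermis. Col3a1 was abundant in tail dermis, whereas Col1a2 was listed at 0 in every dermal library and was left out by a choice made after its values were seen. Without the short RNAs and these collagens, 13641 genes were counted. Of them 10888 reached 1 FPKM in both layers, 2198 only in dermis and 555 only in epidermis. A gene was called higher in a layer when the difference was at least 1. By this rule 2880 genes (21.1%) were higher in dermis and 1917 (14.1%) in epidermis, together 35.2%, and the median difference of all counted genes was -0.09. Scaling both libraries to the same upper quartile moved this median to 0.05. The depth recovered from the values was 36.3 M (mega) fragments for the dermal and 40.3 M for the epidermal library. In bulk RNA such as this, fewer cells of a type and less RNA per cell cannot be told apart.

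The differences towards the dermis were wider than those towards the epidermis. A difference of at least 2 was reached by 1477 genes towards dermis and 582 towards epidermis, a difference of at least 4 by 426 and 34 genes, and a difference of at least 6 by 108 and 0 genes. The extremes were 10.02 and -5.31. The genes higher in dermis mostly stood near the floor in epidermis: 1829 of the 2880 were under 1 FPKM there, and their medians were 9.47 FPKM in dermis and 0.383 FPKM in epidermis. Most genes higher in epidermis were also measured in dermis, where 1584 of the 1917 reached 1 FPKM, with medians of 5.25 FPKM in dermis and 23.3 FPKM in epidermis. Listed at 0 in epidermis and at 1 FPKM or more in dermis were 223 genes, against 5 the other way. Near the threshold, 220 genes lay between 0.9 and 1 and 205 between 1 and 1.1, while 310 lay between -1 and -0.9 and 247 between -1.1 and -1.

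**Figure D1:**
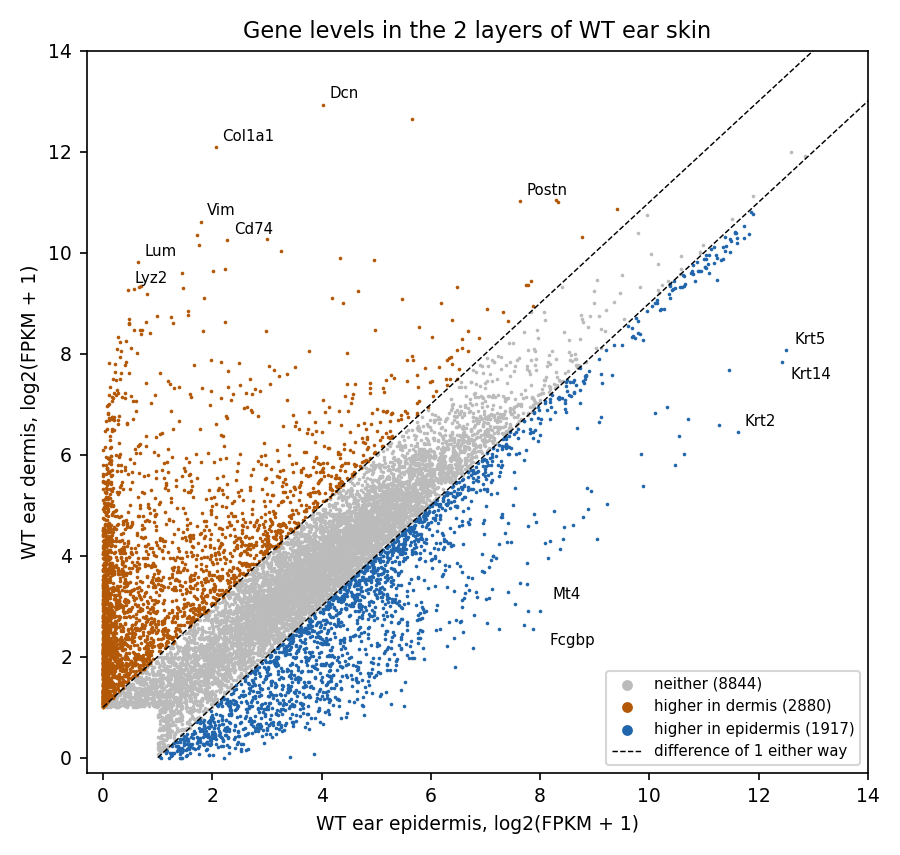
Each point is 1 of 13641 counted genes, with its level in WT ear epidermis on the x axis and in WT ear dermis on the y axis, both as log2(FPKM + 1). The 2880 genes higher in dermis (brown) reach up to 10.02 above equality and line the left edge, the 1917 higher in epidermis (blue) reach down to 5.31 below it, and dashed lines mark a difference of 1.

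The labels of both libraries were set against marker genes first. All 15 fibroblast markers were higher in dermis, with a median difference of 7.00, and their summed level was 19475 FPKM in dermis and 83.5 FPKM in epidermis. All 10 basal keratinocyte markers were higher in epidermis (median -3.34, summed 789 FPKM in dermis and 15210 FPKM in epidermis), as were all 9 suprabasal markers (median -3.98, summed 318 and 8162 FPKM). Fibroblast markers stood in the epidermal library at a median of 0.169% of their dermal level, with a range of 0.0619% to 24.0%. In the dermal library the basal keratinocyte markers reached 9.10% of their epidermal level (median, range 4.12% to 31.4%), and the suprabasal markers 5.61% (2.72% to 14.1%). None of these markers was at 0 in either library. How far keratinocytes or their RNA in the dermal sample set the size of the epidermal differences was not tested. When 9.10% of the epidermal profile was subtracted from the dermal library, the basal median was -6.56, a value the procedure itself sets because the share was taken from these genes. The suprabasal median was then -8.42, which the procedure sets as well. The median share of these markers, 5.61%, lies under the 9.10% taken off, so most of them were put to 0 in dermis. The count of genes higher in epidermis rose from 1917 to 2694, while 2816 genes were higher in dermis.

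Among single genes, structural proteins of the connective tissue led the dermal side. Col1a1, the chain that makes up most of type I collagen, stood at 4362 FPKM in dermis and 3.19 FPKM in epidermis, a difference of 10.02. In the dermal libraries of Koa ear and WT dorsal skin Col1a1 was listed at 0 FPKM, so it was left out of those pairs, and its value here rests on 1 of the 3 dermal libraries compared. Its ratio in WT ear was 1366, with a 95% interval of 1271 to 1470 from the estimated 906860 and 737 fragments. Such intervals cover counting error only. Dcn, the proteoglycan decorin that coats collagen fibrils, had the highest dermal level of these genes, 7827 FPKM against 15.4 FPKM (8.90). Lum, the related proteoglycan lumican, stood at 897 and 0.555 FPKM (9.17). Fmod, fibromodulin of the same family, stood at 624 and 0.485 FPKM (8.72). Vim, the intermediate filament of mesenchymal cells, stood at 1569 and 2.47 FPKM (8.82). Eln, the elastin of elastic fibres, stood at 384 and 0.394 FPKM (8.11).

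Secreted and lysosomal proteins made up much of the rest of the dermal list. Lyz2, the lysozyme of macrophages and other myeloid cells, stood at 616 FPKM in dermis and 0.377 FPKM in epidermis, a ratio of 1632 whose interval runs from 1014 to 2789, since the epidermal value rests on about 17 fragments. Apod, a lipid-binding lipocalin, stood at 643 and 0.582 FPKM, and Serpinf1, a secreted inhibitor of vessel growth, at 644 and 0.614 FPKM. Angptl7, a secreted angiopoietin-like protein, stood at 1310 and 2.28 FPKM. Ctsk, a protease that cuts collagen, stood at 581 and 0.755 FPKM. Igfbp5, a binding protein of insulin-like growth factors, stood at 779 and 1.73 FPKM, and Bgn, the proteoglycan biglycan, at 1136 and 2.38 FPKM. Dpt (dermatopontin), Coch (cochlin) and Cilp, matrix proteins, lay between 319 and 412 FPKM in dermis and between 0.206 and 0.489 FPKM in epidermis. Tnmd, a membrane protein known from tendon, stood at 299 and 0.243 FPKM. The 20 genes furthest towards dermis also held Serping1, the inhibitor of the first complement component, and Cd74 and H2-Aa of antigen presentation, described with their groups.

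Keratins and other keratinocyte products led the epidermal side. Krt5 and Krt14 encode the keratin pair of basal cells. Krt5 stood at 5801 FPKM in epidermis and 267 FPKM in dermis (-4.44), a ratio of 21.7 with a counting interval of 21.4 to 22.0. Krt14 stood at 5518 and 228 FPKM (-4.59). Krt10, a keratin that cells switch on as they leave the basal layer, stood at 2495 FPKM in epidermis and 94.7 FPKM in dermis (-4.70). Krt2, a keratin of the upper spinous and granular layers, stood at 3174 and 86.3 FPKM (-5.18). The widest difference belonged to Fcgbp, which encodes a large protein that binds the Fc part of immunoglobulin G, at 232 FPKM in epidermis and 4.89 FPKM in dermis (-5.31, ratio 47.4, interval 44.9 to 50.0).

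Smaller keratinocyte proteins filled the rest of the epidermal list. Mt4, a metallothionein of stratified epithelia, stood at 256 FPKM in epidermis and 6.46 FPKM in dermis (-5.11). Its ratio of 39.7 has a wide interval, 29.5 to 54.0, because the dermal value rests on about 46 fragments. Calm4 and Calm5, calmodulin-like proteins of skin, stood at 946 and 151 FPKM in epidermis and at 40.4 and 4.86 FPKM in dermis. Krtdap, a secreted protein of differentiating keratinocytes, stood at 1416 and 54.5 FPKM. Ly6d, a surface protein anchored by lipid, stood at 1581 and 63.5 FPKM, and Sfn, the 14-3-3 sigma protein of epithelia, at 329 and 16.6 FPKM. Guca2a, the peptide guanylin that is best known from the gut, stood at 86.0 FPKM in epidermis and 2.47 FPKM in dermis. Serpinb2, Serpinb3b and Serpinb5, protease inhibitors of clade B, lay between 185 and 216 FPKM in epidermis and between 5.15 and 9.84 FPKM in dermis, and the value of Serpinb3b is uncertain because near-identical copies of the gene can share its reads. The remaining genes, Dapl1, Fam25c, Them5, Oas1f and Dsg1a, ranged from 44.4 to 529 FPKM in epidermis and from 1.03 to 19.0 FPKM in dermis.

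The promoters of 4 genes are shown as examples from both sides of the comparison. They are Krt5 and Krt10 for basal and suprabasal keratinocytes, Vim for the dermal cytoskeleton and Twist1 for the dermal transcription factors. Whether these sequences bear on the layer differences was not tested. Each line gives the 150 bases before the annotated start, 5' to 3' on the strand of the gene, from the RefSeq promoter table of build GRCm38.p6. Krt5 lies at chr15:101712906-101713055 (minus strand), Krt10 at chr11:99389365-99389514 (minus strand), Vim at chr2:13574161-13574310 (plus strand) and Twist1 at chr12:33957521-33957670 (plus strand). Capitals mark matches, on either strand, to the motifs searched. The TATA box was searched as TATAAA and the CCAAT box by those letters of its name. The GC box was searched as GGGCGG. For the E-box bound by Snail and Zeb factors the letters were CAGGTG. AP-1 was searched as TGANTCA. AP-2 was searched as GCCNNNGGC. PU.1, a factor of myeloid cells, was searched as GAGGAAGT. TEAD factors were searched as GGAATG. The matches shown do not overlap each other.
Krt5: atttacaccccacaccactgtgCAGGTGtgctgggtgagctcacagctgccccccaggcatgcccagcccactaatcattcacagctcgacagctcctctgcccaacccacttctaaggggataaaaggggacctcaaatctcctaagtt
Krt10: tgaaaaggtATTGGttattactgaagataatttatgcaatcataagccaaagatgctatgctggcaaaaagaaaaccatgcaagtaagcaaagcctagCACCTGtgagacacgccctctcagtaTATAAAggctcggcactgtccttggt
Vim: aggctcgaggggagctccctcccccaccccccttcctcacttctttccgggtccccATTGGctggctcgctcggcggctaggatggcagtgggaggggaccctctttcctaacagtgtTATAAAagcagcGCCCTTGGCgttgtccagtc
Twist1: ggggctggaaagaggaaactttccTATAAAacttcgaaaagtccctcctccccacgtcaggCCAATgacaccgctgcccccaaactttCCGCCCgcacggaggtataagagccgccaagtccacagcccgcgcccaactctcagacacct
In these windows Krt5 held 1 match, the E-box, and Krt10 held 3, a TATA box, a CCAAT box and an E-box. Vim held a TATA box, a CCAAT box and an AP-2 match, and Twist1 a TATA box, a CCAAT box and a GC box. A match is a description of the letters and not a binding site.

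Over all genes the motif shares were read from 300 bases, 250 before to 50 after the start, for the 10704 of 13641 counted genes with an entry, and a gene with several starts was counted once per start. AP-1, the motif of Fos and Jun proteins, was found at like shares in the promoters of all genes higher in epidermis (7.63%, 140 of 1834) and all genes higher in dermis (7.89%, 219 of 2774), against 4.40% for genes called in neither layer and 7.81% of all promoters in the table. The E-box was found in 23.2%, 17.1%, 17.1% and 20.2% of these sets, and the PU.1 motif in 2.07%, 4.40%, 2.77% and 3.20%. TATA boxes were found in 9.49%, 10.1%, 6.42% and 13.6%. A CpG content at or above 0.6 of that expected from base composition was found in 61.0% of the promoters of genes higher in epidermis, 42.7% for dermis, 73.7% for neither layer and 35.8% of all promoters. The sets with the widest differences were small, 145 promoters of genes at least 3 higher in epidermis and 378 of genes at least 4 higher in dermis. In these AP-1 was found in 17.9% and 8.73%, the E-box in 33.1% and 12.2%, PU.1 in 1.38% and 5.29%, and the CpG content above in 29.7% and 29.4%. These shares describe the sets, and they carry no test.

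The groups of genes are described in the order of the tissue, from the surface inward, and the plot of all lists shows every counted member. Beside each count stands the background already given, 21.1% of all counted genes higher in dermis and 14.1% higher in epidermis. The lists were chosen by function, but with earlier results of these data known. A list's count and median therefore only describe these 2 libraries. Members under 1 FPKM in both libraries were not counted. A member that reached 1 FPKM in 1 layer only was bound to have the larger value there. In 4 of the 36 lists (endothelium, mast cell, Merkel cell and growing hair follicle) this held for every counted member, so their values are given as a description only. In dermis it held for 16 of 18 cartilage, 7 of 8 T cell, 9 of 11 macrophage and 22 of 27 mesenchymal factor genes. It also held for 10 of 15 fibroblast markers in dermis and 8 of 12 cornified envelope genes in epidermis. The filter set the direction of such members, so their counts are no support for a list.

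**Figure D2:**
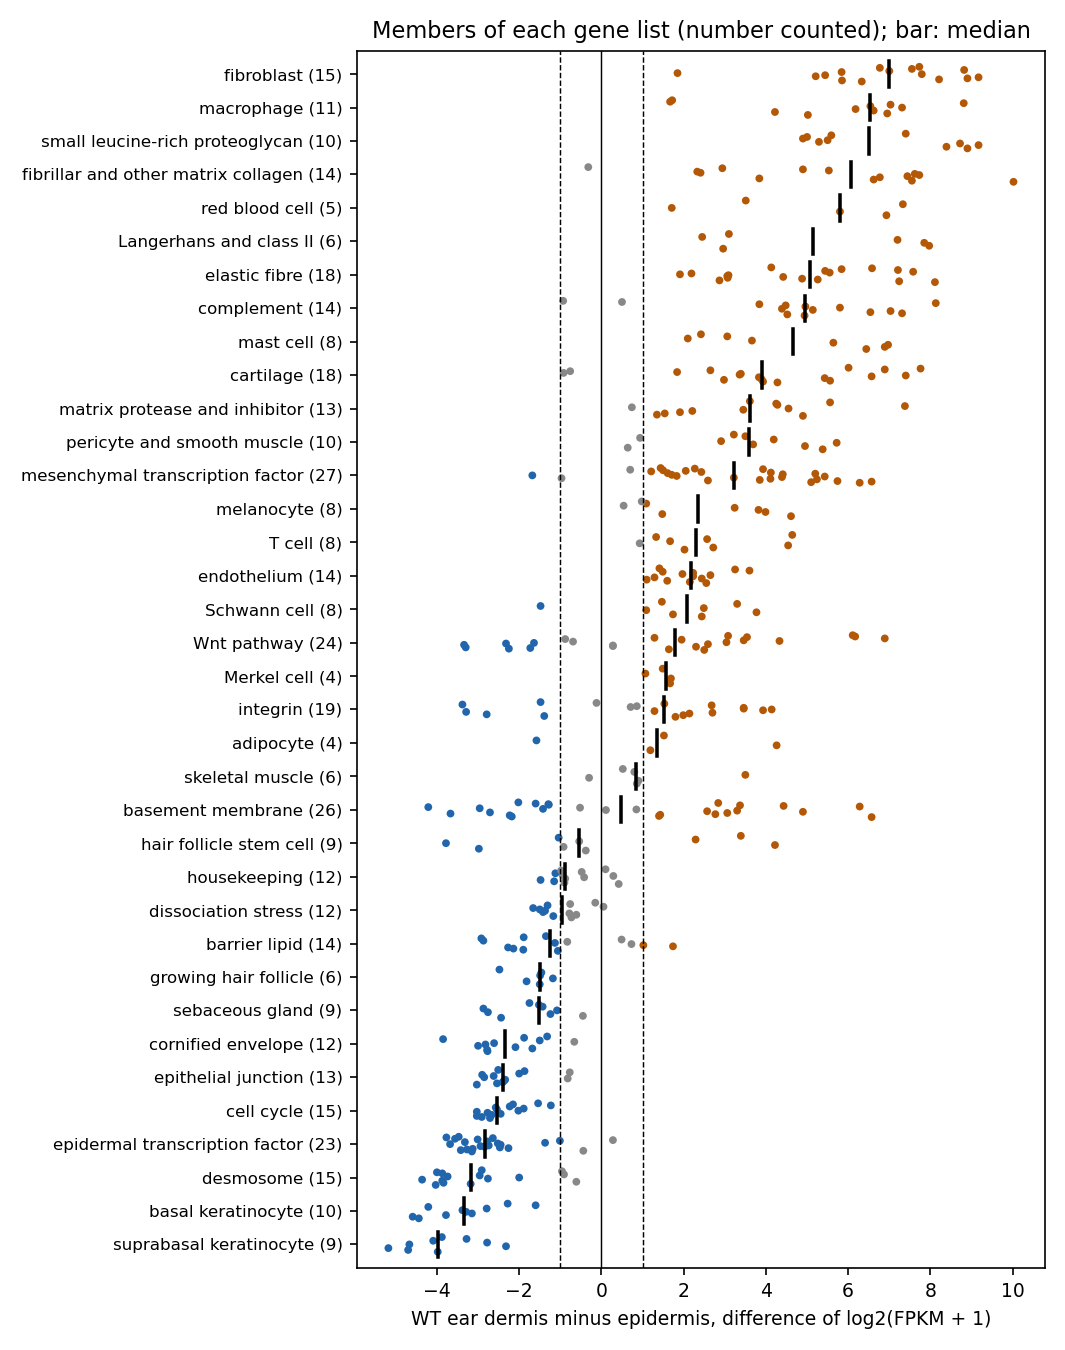
Each row is 1 of 36 gene lists with the number of members counted, and each point is a member's difference, dermis minus epidermis, on log2(FPKM + 1), with the median as a bar and dashed lines at -1 and 1. List medians run from -3.98 for suprabasal keratinocyte markers to 7.00 for fibroblast markers, while basement membrane genes are split around a median of 0.48.

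The programme of the barrier was higher in epidermis, but at modest levels for the last steps of cornification. Of 19 cornified envelope genes measured, 12 were counted, and 11 of these were higher in epidermis and none in dermis (median -2.35). Sprr1a, a small proline-rich envelope protein, stood at 93.3 FPKM in epidermis and 5.53 FPKM in dermis. Cdsn, the adhesive protein corneodesmosin, stood at 22.6 and 1.95 FPKM. Lor, the envelope protein loricrin, reached only 10.1 FPKM in epidermis (0.628 FPKM in dermis), and Ivl, involucrin, 11.2 FPKM (0.776 FPKM in dermis). Flg2, a relative of filaggrin, stood at 2.39 and 0.0588 FPKM. Tgm1, the transglutaminase that cross-links the envelope, was called in neither layer, at 2.48 and 1.20 FPKM. Most late cornified envelope genes stood under 1 FPKM in both layers, and members of the Sprr and Lce families have close copies that can share reads.

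Genes of barrier lipids went mostly the same way, 9 of 14 higher in epidermis and 2 in dermis (median -1.24, -0.71 at a pseudocount of 5). Acer1, a ceramidase of the upper epidermis, stood at 24.5 FPKM in epidermis and 2.48 FPKM in dermis. Sptlc3, a subunit of the enzyme that starts sphingolipid synthesis, stood at 16.1 and 1.26 FPKM, and Elovl4, which makes very long fatty acids, at 14.9 and 2.60 FPKM. Abca12, the lipid transporter of lamellar bodies, stood at 3.89 and 0.308 FPKM. Ugcg, which adds glucose to ceramide, was higher in dermis at 17.0 FPKM against 4.40 FPKM in epidermis.

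Cell junctions of epithelia were higher in epidermis almost throughout. Of 15 desmosome genes 12 were higher there and none in dermis (median -3.18). Dsp, desmoplakin, which ties keratin filaments to the junction, stood at 442 FPKM in epidermis and 26.1 FPKM in dermis. Dsc3 and Dsg3, the adhesive cadherins of the lower layers, stood at 348 and 87.2 FPKM in epidermis, against 22.8 and 5.61 FPKM in dermis. Perp, a small desmosomal membrane protein, reached 1676 and 104 FPKM. Ppl (-0.96), Dsc2 (-0.91) and Pkp2 (-0.61) were called in neither layer. Of 13 other junction genes 11 were higher in epidermis (median -2.40), among them Cdh1, the adherens junction protein E-cadherin, at 152 and 17.7 FPKM, and the tight junction gene Cldn1 at 80.1 and 12.9 FPKM.

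Transcription factors separated the layers in both directions. Of 23 epidermal factors 21 were higher in epidermis and none in dermis (median -2.84). Trp63, the master regulator of stratified epithelia p63, stood at 140 FPKM in epidermis and 14.9 FPKM in dermis. Klf5, a factor of dividing epithelial cells, stood at 54.6 and 4.19 FPKM, and Sox15 at 19.5 and 0.735 FPKM. Esrp1, a splicing factor of epithelial cells counted with this list, stood at 138 and 9.18 FPKM. The exceptions were Klf4 and Prdm1. Klf4, a factor of the upper layers, stood at 185 FPKM in epidermis and 136 FPKM in dermis, and Prdm1, a transcriptional repressor, at 2.86 and 3.68 FPKM.

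Of 27 mesenchymal factors 24 were higher in dermis and 1 in epidermis (median 3.22). Prrx1, a homeobox factor of limb and face mesenchyme, stood at 106 FPKM in dermis and 0.126 FPKM in epidermis (6.57). Twist1, a basic helix-loop-helix factor whose promoter is printed above, stood at 88.9 and 0.156 FPKM (6.28), and its relative Twist2 at 34.9 and 0.0447 FPKM. Tbx15, a T-box factor of dermal patterning, stood at 46.5 and 0.103 FPKM. Zeb2 and Zeb1, repressors that bind the E-box searched above, stood at 38.8 and 13.9 FPKM in dermis and at 0.0500 and 0.0345 FPKM in epidermis. Snai1, a factor of the same E-box, stood at 20.6 and 0.251 FPKM. Snai2 did not follow it, at 32.3 FPKM in epidermis (-0.97, and -1.25 after the keratinocyte share was subtracted). Foxc1, a forkhead factor, was the 1 member higher in epidermis, at 24.9 FPKM against 7.07 FPKM in dermis (-1.68).

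The basement membrane, to which both layers contribute, was split between them gene by gene. Of 26 genes counted 12 were higher in dermis, 11 in epidermis and 3 in neither (median 0.48, or 1.40 when only genes with 5 FPKM in a layer were kept). The summed levels were 1004 FPKM in dermis and 1013 FPKM in epidermis. Col17a1 alone held 599 FPKM of the epidermal sum and 31.4 FPKM of the dermal sum. Lama3 and Lamb3, laminin chains that anchor basal keratinocytes, were higher in epidermis, Lama3 at 23.4 against 4.37 FPKM and Lamb3 at 114 against 8.02 FPKM. Of the laminin chains higher in dermis, Lamb1 stood at 37.5 against 13.3 FPKM, Lamb2 at 99.8 against 13.8 FPKM, Lamc1 at 134 against 15.2 FPKM and Lamc3 at 29.9 against 0.0389 FPKM. Among the alpha chains, Lama2 (106 against 0.122 FPKM) and Lama4 (35.4 against 12.8 FPKM) were higher in dermis and Lama5 (17.8 against 3.01 FPKM) in epidermis.

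Type IV collagen, the network former of the basement membrane, divided by chain. Col4a1 and Col4a2, a head-to-head gene pair, were higher in dermis at 87.4 and 109 FPKM, against 13.9 and 10.1 FPKM in epidermis. Col4a5 and Col4a6, another such pair, were higher in epidermis at 6.61 and 14.5 FPKM, against 1.84 and 0.989 FPKM in dermis. Col4a3 (1.17 and 1.00 FPKM in dermis and epidermis) and Col4a4 (2.47 and 0.918 FPKM) were called in neither layer. The linkers Nid1 and Nid2 and the proteoglycan perlecan (Hspg2) were higher in dermis, Nid1 at 176 against 1.27 FPKM. Agrn, another proteoglycan, was higher in epidermis at 44.9 against 17.9 FPKM. Col17a1, the hemidesmosomal collagen of basal cells, stood at 599 FPKM in epidermis and 31.4 FPKM in dermis. Col7a1, which forms the anchoring fibrils below the membrane, was called in neither, at 27.3 and 18.7 FPKM. In the complex that links epithelium to mesenchyme, Fras1 and Frem2 were higher in epidermis, at 2.87 and 5.60 FPKM against 0.276 and 0.629 FPKM, and Frem1 was higher in dermis, at 6.24 against 0.00796 FPKM.

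**Figure D3:**
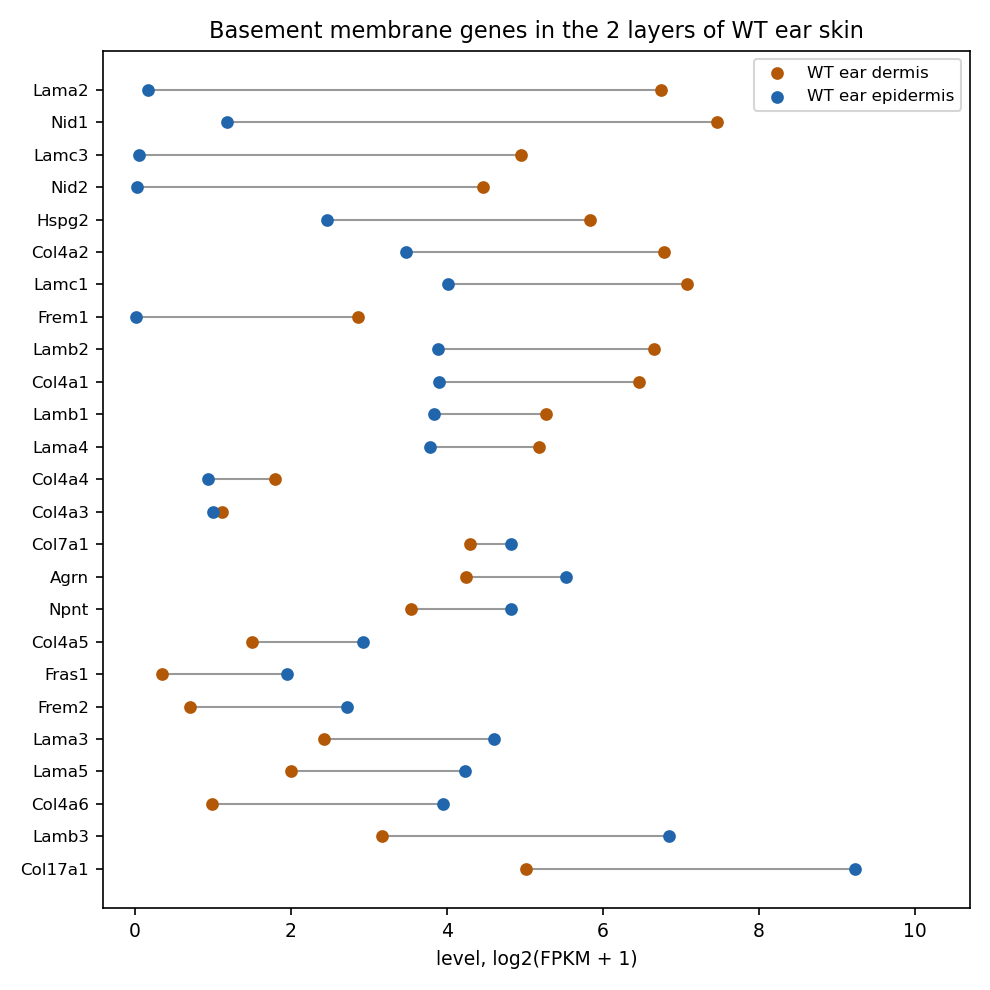
Levels of 25 of the 26 basement membrane genes counted, as log2(FPKM + 1) on the x axis, in WT ear dermis (brown) and WT ear epidermis (blue), 1 library each, ordered by their difference. The top 12 genes, from Lama2 to Lama4, are higher in dermis and the bottom 10, from Agrn to Col17a1, are higher in epidermis.

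Integrins, the receptors for these matrices, divided in a like manner, with 11 of 19 higher in dermis and 5 in epidermis (median 1.53, 0.83 at a pseudocount of 5). Itga6 and Itgb4, which form the laminin receptor of the hemidesmosome, stood at 125 and 103 FPKM in epidermis and at 11.8 and 8.98 FPKM in dermis. Itga3, a laminin receptor, stood at 34.6 and 4.13 FPKM. The collagen receptors Itga10 and Itga11 stood at 0.118 and 0.0889 FPKM in epidermis and were higher in dermis (a difference of 3.46 each). Itga2, the collagen receptor of keratinocytes, was higher in epidermis at 5.37 against 1.42 FPKM. Itga9, a receptor of tenascin, stood at 17.5 FPKM in dermis and 0.0498 FPKM in epidermis. Itgb1, the common partner chain, was called in neither, at 217 FPKM in dermis and 119 FPKM in epidermis (0.86, and 1.01 with equal upper quartiles).

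The matrix of the dermis was higher in dermis nearly without exception. Of 14 fibrillar and other matrix collagens counted, 13 were higher in dermis (median 6.07) and Col18a1, a collagen of basement membrane zones, was called in neither (-0.32). Col6a1, Col6a2 and Col6a3, the chains of the microfibrillar type VI collagen, stood at 1041, 820 and 265 FPKM in dermis and at 8.53, 3.71 and 0.255 FPKM in epidermis. Col8a1, a short-chain network collagen, stood at 791 and 3.03 FPKM. Col5a1, a regulator of fibril diameter, stood at 340 and 0.824 FPKM. All 18 elastic fibre genes were higher in dermis (median 5.07). Fbn1, the fibrillin that scaffolds elastin, stood at 177 and 0.184 FPKM, Mfap4 at 222 and 0.170 FPKM, and Lox, the enzyme that cross-links collagen and elastin, at 161 and 0.0946 FPKM. The smallest differences of this list belonged to Ltbp3 (1.91) and Ltbp4 (2.19), which store latent TGF-beta.

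All 10 small leucine-rich proteoglycans were higher in dermis (median 6.50), from Aspn, asporin, at 546 and 17.3 FPKM (4.90) to Lum (9.17). Of 13 matrix proteases and inhibitors 12 were higher in dermis (median 3.61). Mmp2, a gelatinase, stood at 932 FPKM in dermis and 30.2 FPKM in epidermis. Timp2, which both inhibits and helps activate it, stood at 955 and 19.3 FPKM. Adamts2, which trims procollagen, stood at 218 and 0.315 FPKM. Mmp3, stromelysin, had the smallest difference among those called (116 and 45.0 FPKM, 1.35), and Adamts1 was called in neither layer (0.74).

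Genes of cartilage were higher in the dermal library, 16 of 18 counted, with none higher in epidermis (median 3.91). These 16 reached 1 FPKM in dermis only, so the filter set their direction. Cytl1, a secreted protein of chondrocytes, stood at 354 FPKM in dermis and 0.643 FPKM in epidermis. Chad, chondroadherin, stood at 257 and 0.529 FPKM, Ucma, a matrix protein of the upper growth plate, at 127 and 0.0852 FPKM, and Comp, an oligomeric matrix protein, at 102 and 0.0780 FPKM. The defining cartilage proteins were lower: Acan, aggrecan, stood at 18.8 FPKM in dermis and Col2a1, type II collagen, at 15.1 FPKM, against 0.0173 and 0.0524 FPKM in epidermis. Sox9, the factor that drives Col2a1 in cartilage and also marks hair follicle epithelium, went the other way at 22.7 FPKM in dermis and 43.9 FPKM in epidermis (-0.92), and so did Sox6 (-0.76), both short of the threshold. Matn1 stood under 1 FPKM in both. Whether cells of the cartilage plate passed the sort is not given, and their part in the dermal matrix differences was not tested.

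Vessels and nerves were represented in the dermal library at low to moderate levels. The 14 endothelial genes counted of 15 reached 1 FPKM in dermis only (median 2.19, 0.81 at a pseudocount of 5), with summed levels of 67.9 FPKM in dermis and 2.03 FPKM in epidermis. Plvap, a protein of fenestrated vessels, led with 12.8 FPKM against 0.137 FPKM, followed by the lymphatic receptor Lyve1 with 10.8 against 0.237 FPKM. Of 10 pericyte and smooth muscle genes 8 were higher in dermis (median 3.60). Acta2, smooth muscle actin, stood at 63.9 and 0.236 FPKM, and Rgs5, a signalling regulator of pericytes, at 42.5 and 0.0463 FPKM. Cspg4 (0.64), the proteoglycan NG2, and Cnn1 (0.94) were called in neither. Of 8 Schwann cell genes 7 were higher in dermis (median 2.09, 0.87 at a pseudocount of 5), among them S100b, a calcium-binding protein of glia, at 11.5 and 0.272 FPKM. Ngfr, the low-affinity neurotrophin receptor, was higher in epidermis at 8.22 against 2.30 FPKM.

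Most members of the fat and muscle lists were called in neither layer or were not counted. Of 10 adipocyte genes 4 were counted, and Adipoq, Plin1, Cidec, Lep, Cfd and Retn, most of them products of mature fat cells, stood under 1 FPKM in both layers. Of the 4, 3 were higher in dermis and 1 in epidermis (median 1.36, or 0.16 over all 10 without the filter). Lpl stood at 111 FPKM in dermis and 37.8 FPKM in epidermis (1.52), and Plin4 at 1.40 and 0.0535 FPKM (1.19). Fabp4, a fatty acid carrier, stood at 23.6 FPKM in dermis and 0.283 FPKM in epidermis, whereas Pparg, the nuclear receptor that fat and sebaceous cells share, was higher in epidermis at 34.7 FPKM (-1.58). Of 6 skeletal muscle genes counted 1 was called, Tnnt3, a troponin, at 12.0 FPKM in dermis and 0.146 FPKM in epidermis.

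Most immune cell genes were higher in dermis. All 11 macrophage markers were higher there (median 6.54), with Csf1r, the receptor on which these cells depend, at 149 FPKM in dermis and 0.209 FPKM in epidermis. C1qa, C1qb and C1qc, the chains of complement C1q that macrophages make, stood at 180, 103 and 148 FPKM in dermis and between 0.116 and 0.146 FPKM in epidermis. Mrc1, the mannose receptor, stood at 105 and 0.0774 FPKM. The 8 mast cell genes reached 1 FPKM in dermis only (median 4.65), and 2 of them, Fcer1a and Ms4a2 of the high-affinity IgE receptor, were listed at 0 in epidermis. Mcpt4 and Cma1, proteases of mast cell granules, stood at 140 and 124 FPKM in dermis and at 0.126 and 0.0568 FPKM in epidermis. Of 14 complement genes 12 were higher in dermis (median 4.95), and the regulators Cd55 (0.50) and Cd59a (-0.93), which protect cells from complement, were called in neither layer.

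Among cells that are known to live within the epidermis, most genes of the Langerhans, T cell and melanocyte lists were higher in the dermal library. Cd207, the langerin of Langerhans cells, stood at 8.55 FPKM in dermis and 0.224 FPKM in epidermis. Cd74, the chaperone of class II molecules, stood at 1215 and 3.85 FPKM, and H2-Aa, a class II chain, at 632 and 1.75 FPKM, with the caveat that histocompatibility genes have close copies. All 6 genes of this list were higher in dermis (median 5.15). Of 8 T cell genes 7 were higher in dermis (median 2.30, 0.92 at a pseudocount of 5), and these 7 reached 1 FPKM in dermis only. Cd3g, a chain of the T cell receptor complex, stood at 23.6 and 0.0604 FPKM, and Cd247, another chain, was called in neither at 13.6 and 6.69 FPKM (0.93, and 1.06 with equal upper quartiles). Of 7 Merkel cell genes 4 were counted, each at 1 FPKM or more in dermis only, and the median was 1.58, or 0.53 at a pseudocount of 5 and 1.07 over all 7 without the filter. Among the 3 not counted, Atoh1, a factor that specifies these cells, was listed at 0 in dermis and stood at 0.0394 FPKM in epidermis. Krt20, a Merkel cell keratin, stood at 2.36 and 0.0430 FPKM. Of 8 melanocyte genes 6 were higher in dermis (median 2.36), led by the pigment enzyme Dct at 50.7 and 1.12 FPKM, while Mitf, the regulator of the lineage, was called in neither at 10.3 and 6.77 FPKM. The gate used to sort the epidermal library is not known here, and its part in these values was not tested.

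Blood was measurable in dermis. The 5 red blood cell genes counted were all higher there (median 5.80), with Alas2, the first enzyme of heme synthesis in erythroid cells, at 14.8 FPKM in dermis and 0.386 FPKM in epidermis. The globin genes share reads with each other, so that their single values are uncertain.

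Hair follicle and gland genes were higher in epidermis or split. Of 13 growing hair genes 6 reached 1 FPKM, each in epidermis only, and the median was -1.49, or -0.56 at a pseudocount of 5 and -0.94 over all 13 without the filter. The highest was Hoxc13, a regulator of hair keratins, at 6.52 FPKM against 0.345 FPKM, and the inner root sheath keratin Krt27 stood at 4.71 and 0.617 FPKM. The hair shaft keratins Krt31 and Krt85 stood under 1 FPKM in both layers. Of 9 follicle stem cell genes 3 were higher in each direction (median -0.54). Lhx2 was higher in epidermis at 19.4 against 1.58 FPKM, Krt15 at 2819 against 205 FPKM and Lrig1 at 45.9 against 21.9 FPKM. Cd34, which vessels and dermal fibroblasts also express, was higher in dermis at 212 against 10.4 FPKM, as were Postn (2088 against 198 FPKM) and Tcf7l1 (23.5 against 4.02 FPKM). Of 9 sebaceous gland genes 8 were higher in epidermis (median -1.52), with the desaturase Scd1 at 540 and 98.7 FPKM and the wax synthesis enzyme Far2 at 46.2 and 5.45 FPKM.

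Dividing cells were represented more in epidermis. All 15 cell cycle genes were higher there (median -2.54). Mki67, the proliferation antigen, stood at 52.2 FPKM in epidermis and 7.12 FPKM in dermis, Top2a, a topoisomerase of S phase and mitosis, at 56.7 and 6.67 FPKM, and Ccnb1, a mitotic cyclin, at 43.5 and 4.46 FPKM. The smallest difference was that of the replication helicase gene Mcm3 (-1.23). The dermal levels of these genes were a median of 13.6% of the epidermal ones, beside 9.10% for basal and 5.61% for suprabasal keratinocyte markers, whose part in them was not tested. Of 12 genes that rise when tissue is dissociated, 6 were higher in epidermis and none in dermis (median -0.97, or -1.25 after the keratinocyte share was subtracted and -1.02 at a pseudocount of 0.1), among them Hspa1b (59.4 and 18.1 FPKM) and Egr1 (127 and 46.8 FPKM), and their part in other differences was not tested either. Of 12 housekeeping genes 3 were called, all higher in epidermis (Rplp0, Pgk1 and Ppia, median of the list -0.89, or -1.16 after that subtraction), and with equal upper quartiles Pgk1 fell short at -0.97.

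The next question was how signals and their receptors were placed. Of 56 ligand and receptor pairs 48 had both genes counted. Both were higher in dermis in 17 pairs, both in epidermis in 4, and in 9 pairs the genes were called in opposite layers. Of 50 distinct ligands counted 29 were higher in dermis and 10 in epidermis, and of 39 receptors 22 and 8. Over all counted genes 21.1% were higher in dermis and 14.1% in epidermis. As most ligands and most receptors were higher in dermis, the 17 pairs do not show that partners share a layer. A pair of levels shows where RNA was measured and not that a signal passed.

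In 5 pairs the ligand was higher in dermis and the receptor in epidermis, and 3 of these were fibroblast growth factors. Fgf7, keratinocyte growth factor, stood at 28.2 FPKM in dermis and 0.0201 FPKM in epidermis, and Fgf10 at 4.79 and 0.170 FPKM. Their receptor gene Fgfr2 stood at 37.5 FPKM in dermis and 113 FPKM in epidermis (-1.57). Fgf18, a hair cycle factor, stood at 23.6 and 8.29 FPKM, and Fgfr3 at 16.7 and 65.4 FPKM. Rspo1, which amplifies Wnt signals, stood at 20.1 FPKM in dermis and 0.0455 FPKM in epidermis, and its receptor Lgr6, a marker of epithelial progenitors, was higher in epidermis, with 2.27 FPKM in dermis (-2.10). Mdk, the heparin-binding midkine, stood at 44.3 and 1.52 FPKM, and its binding partner Sdc1, a keratinocyte syndecan, at 49.4 and 154 FPKM.

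In 4 pairs the ligand was higher in epidermis and the receptor in dermis. Of these, 3 signal to immune cells. The alarmin Il33 stood at 34.9 FPKM in epidermis and 4.45 FPKM in dermis, and its receptor Il1rl1 at 0.0864 and 5.96 FPKM. Tslp, a cytokine of allergic skin, stood at 8.93 and 3.51 FPKM, and its receptor chain Crlf2 at 2.49 and 16.4 FPKM. Ccl20, a chemokine of epithelia, stood at 7.41 and 0.600 FPKM, and its receptor Ccr6 was listed at 0 in epidermis and stood at 3.64 FPKM in dermis. Pdgfb, a growth factor for mural cells, stood at 8.19 and 3.50 FPKM (-1.03, and -0.91 with equal upper quartiles), and Pdgfrb at 0.0998 and 62.3 FPKM. Pdgfa, which fibroblasts of the follicle respond to, fell short of the threshold at 33.9 FPKM in epidermis and 18.0 FPKM in dermis (-0.88, and -1.13 after the keratinocyte share was subtracted). Its receptor Pdgfra stood at 0.210 and 96.6 FPKM.

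Other pairs had both genes higher in the same layer, or a gene that was called in neither. Jag2 and Dll1, ligands of Notch, stood at 97.5 and 19.8 FPKM in epidermis and at 8.55 and 2.47 FPKM in dermis, and the receptor Notch1 at 38.1 and 5.98 FPKM. Within dermis, Csf1 stood at 46.8 FPKM and 3.58 FPKM in epidermis, beside Csf1r. Il34, the other ligand of Csf1r, was called in neither at 17.5 FPKM in epidermis and 9.53 FPKM in dermis (-0.81). Igf1, insulin-like growth factor 1, stood at 103 FPKM in dermis and 0.454 FPKM in epidermis (6.16), while its receptor Igf1r was called in neither (0.49). Cxcl12, the chemokine that holds leukocytes and progenitors, stood at 181 and 5.47 FPKM, and its receptor Cxcr4 at 14.8 and 2.60 FPKM. Edn3, an endothelin for pigment cells, stood at 14.6 and 0.0179 FPKM, and its receptor Ednrb at 7.97 and 0.0876 FPKM. Egfr, the receptor of epidermal growth factors, was called in neither, at 52.0 FPKM in epidermis and 37.6 FPKM in dermis. Shh, a follicle signal, stood under 1 FPKM in both.

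**Figure D4:**
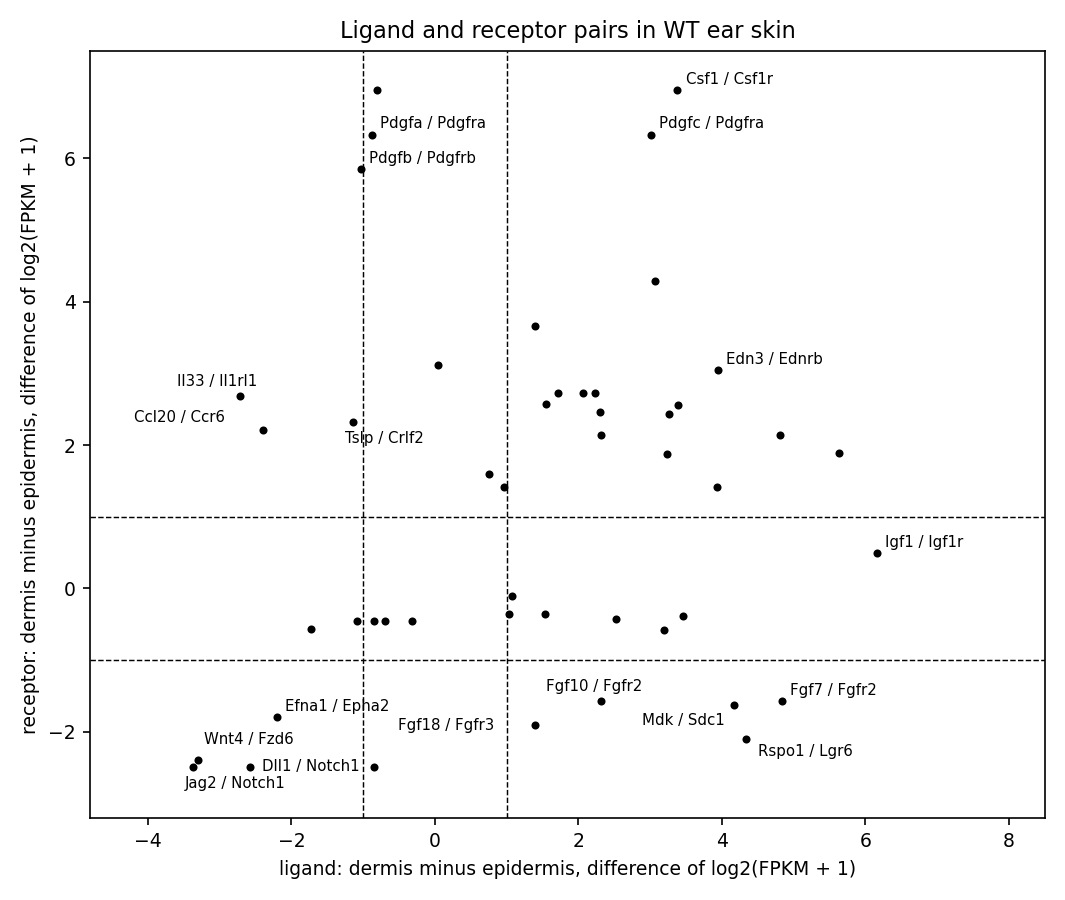
Each of the 48 points is a ligand and receptor pair, placed by the difference, dermis minus epidermis, on log2(FPKM + 1) of the ligand (x axis) and of the receptor (y axis), with dashed lines at -1 and 1. The lower right corner holds the 5 pairs with the ligand higher in dermis and the receptor in epidermis, and the upper left corner the 4 pairs the other way round.

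Wnt genes, which direct growth in both layers, were divided by ligand. Of 24 counted 14 were higher in dermis and 6 in epidermis (median 1.80, 0.62 at a pseudocount of 5). The 6 in epidermis were all ligands: Wnt4 at 53.3 against 4.52 FPKM in dermis, Wnt7b at 24.2 against 1.50 FPKM, Wnt10a at 16.9 against 2.58 FPKM, and Wnt3, Wnt3a and Wnt10b between 2.75 and 5.66 FPKM against 0.129 to 0.407 FPKM. The dermal ligands were Wnt2, Wnt2b, Wnt5a, Wnt9a and Wnt11, of which Wnt5a was the highest at 15.2 FPKM against 2.30 FPKM in epidermis. Secreted inhibitors reached far higher levels in dermis. Wif1 stood at 218 FPKM against 2.19 FPKM in epidermis, Sfrp2 at 132 against 0.124 FPKM, Dkk3 at 114 against 12.6 FPKM and Dkk2 at 96.4 against 0.353 FPKM. Frzb and Sfrp4, of the same kind, were listed at 0 in epidermis and stood at 10.6 and 1.45 FPKM in dermis. Sfrp1 did not follow them, at 9.67 FPKM in dermis and 18.7 FPKM in epidermis (-0.88, and -1.13 after the keratinocyte share was subtracted).

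Some related genes took opposite layers. Of 23 pairs of paralogs counted, 16 were called dermis for the first gene and epidermis for the second. The pairs were picked with a dermal and an epidermal partner in mind, so this count does not show how often paralogs divide. Among galectins, Lgals1 stood at 334 FPKM in dermis and 0.623 FPKM in epidermis, and Lgals7 at 81.8 and 1491 FPKM. Among water channels, Aqp1 stood at 143 and 0.426 FPKM, and Aqp3, which also carries glycerol, at 13.5 and 217 FPKM. For fatty acid carriers the pair was Fabp4, given above, and Fabp5 at 39.5 and 185 FPKM. For carriers of retinoic acid it was Crabp1 at 52.7 and 0.323 FPKM and Crabp2 at 4.03 and 19.2 FPKM. Annexin Anxa8 stood at 123 FPKM in dermis and 1282 FPKM in epidermis, and Anxa6 at 123 and 16.6 FPKM. Not all pairs divided: Tgm2 and Tgm1, Tpm2 and Tpm3, and Actn1 and Actn4 were called in neither layer, and Mgst3 and Mgst2, glutathione transferases of membranes, were both higher in epidermis. Ldhb was higher in epidermis at 125 against 39.1 FPKM, while Ldha, the other lactate dehydrogenase chain, fell short at 343 against 176 FPKM (-0.96).

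The WT ear pair was then set beside the other 2 pairs, which share no library with it. In Koa ear 2800 of 13746 genes (20.4%) were higher in dermis and 1680 (12.2%) in epidermis, together 32.6%, and in WT dorsal skin 2199 of 13701 and 1081 (7.89%), together 23.9%. Of the genes higher in WT ear dermis and counted in the other pair, 2534 of 2812 (90.1%) were also called higher in Koa ear dermis, and 1795 of 2545 (70.5%) in dorsal dermis. For genes higher in WT ear epidermis the shares were 1457 of 1908 (76.4%) and 805 of 1876 (42.9%). The median difference of the dermal genes was 2.07 in both ears, and 1.60 in dorsal skin where the same genes had 2.15 in WT ear. For the epidermal genes it was -1.38 in Koa ear and -0.92 in dorsal skin, against -1.51 in WT ear. Both sets of genes were selected by their WT ear differences, and the part of this selection in the medians was not tested. Across 12917 genes, Pearson's r of the differences was 0.97 with Koa ear and 0.87 with dorsal skin (Spearman's rho 0.95 and 0.84), a description across genes, which are not replicates.

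Marker shares of the 3 pairs stand beside these values. They are ratios of the same dermal and epidermal levels, so for the marker genes they carry the same information as the difference. In the dermal library, basal markers reached a median share of 9.10% of their epidermal level in WT ear, 12.7% in Koa ear and 43.6% in dorsal skin, and suprabasal markers 5.61%, 11.8% and 33.6%. Fibroblast markers stood in the epidermal library at 0.169%, 0.232% and 0.549%. Whether they have a part in the smaller epidermal differences of dorsal skin was not tested. Krt10, one of these markers, had differences of -4.70 in WT ear, -3.08 in Koa ear and -1.43 in dorsal skin. Krt2 stood at 3174 FPKM in WT ear epidermis and 2591 FPKM in Koa ear epidermis, but at 9.40 FPKM in dorsal epidermis. On the dermal side Fmod stood at 624 FPKM in WT ear, 321 FPKM in Koa ear and 11.2 FPKM in dorsal dermis, and its difference of 8.72 in WT ear was 2.91 in dorsal skin. Lum kept a wide difference in all 3 pairs, 9.17, 9.09 and 7.65. Whether a difference between layers varies by site or genotype was not tested, since each pair is 1 library against 1 library.

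**Figure D5:**
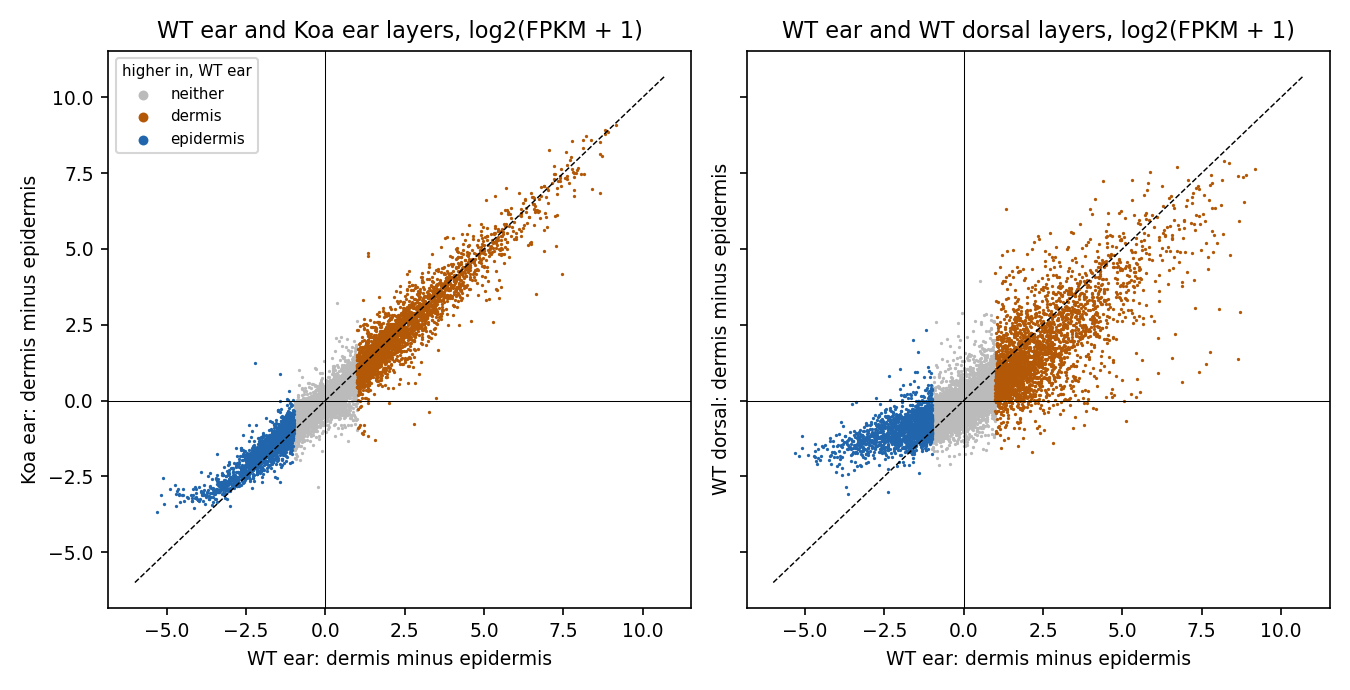
Difference between dermis and epidermis on log2(FPKM + 1) in WT ear (x axes) against Koa ear (left, y axis) and WT dorsal skin (right, y axis), 1 point per gene counted in both, coloured by the call in WT ear, and the dashed line marks equal differences. Genes higher in WT ear epidermis had a median of -1.38 in Koa ear and -0.92 in dorsal skin, against -1.51 in WT ear. Those furthest towards epidermis, such as Fcgbp (-5.31 in WT ear, -3.69 in Koa ear, -1.74 in dorsal skin), lie above the line in both panels.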

How the data were processed

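RNA of sorted skin cells was sequenced in 7 libraries, and 6 of them (dermis and epidermis of WT ear, Koa ear and WT dorsal skin) were compared. The library of tail dermis entered only the rule on failed estimates below. The authors deposited 1 FPKM value per gene symbol and library. Among the tools, TopHat2 2.0.13 and Cufflinks 2.2.1 are named in the submitters' processing notes, and the builds listed there are GRCm38 and mm9. The role of each build and the annotation are not given in the sources used here. Cufflinks divides fragments among overlapping or near-identical genes, and very abundant genes can be left at 0.

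Differences were taken on log2(FPKM + 1), a pseudocount of 1, over genes at 1 FPKM or more in either library, and a difference of at least 1 was counted. Genes listed at 0 in a layer but at 100 FPKM or more in another library of that layer were left out, as was Col1a2, by a choice made after its values were seen. Of 22552 symbols 22289 matched RefSeq (GRCm38.p6), the source of positions and promoters. Depth was recovered from the low values, which fall on steps of whole fragments: with WT ear dermis as the reference, 75.4% to 78.2% of the low values compared in each of the other 5 libraries lay within 0.1% of a step. The 6 depths lay between 31.6 and 40.3 M fragments. Intervals are exact 95% intervals of counting error for estimated fragments. Genes were named by rule: per direction the 20 largest differences among genes reaching 10 FPKM, without short RNAs and unnamed models, up to 6 members of each list (more where members went both ways), members opposed to their list, and any ligand, receptor or paralog pair. Members and lists were chosen with earlier results of these data known. The alternatives tried were pseudocounts of 0.1 and 5, no filter and a filter of 5 FPKM, a difference of 2, equal upper quartiles, a median difference of 0, short RNAs kept, and subtraction of the share of the other layer (9.10% and 0.169%). The values of some genes in the lists are not reported here. Scripts were tested on simulated data. Python 3.11.15, pandas 2.3.3, numpy 2.4.6 and scipy 1.17.1 were used.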

Additional observations from a re-analysis of the deposited data

Results flagged for a closer look

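Among the genes of the lists and pairs, 4 were called in opposite layers in WT ear and WT dorsal skin, each in 1 library against 1 library, and the difference between the sites was not tested. Over all genes called in WT ear and counted in dorsal skin, 16 of 4421 had an opposite call. Bmp2, a BMP ligand, was higher in dermis in WT ear (17.9 against 8.24 FPKM, 1.03, and 0.97 after the keratinocyte share was subtracted) and higher in epidermis in dorsal skin (15.3 FPKM in dermis, 32.8 FPKM in epidermis, -1.06), with 0.69 in Koa ear. Fgf18, a fibroblast growth factor of the hair cycle, had 1.40 in WT ear (23.6 against 8.29 FPKM) and -1.23 in dorsal skin (12.0 against 29.6 FPKM) with 1.35 in Koa ear. Col8a2, a network collagen, had 2.41 in WT ear (50.8 against 8.78 FPKM) and -1.06 in dorsal skin (3.42 against 8.22 FPKM), with 2.09 in Koa ear. Soat1, which esterifies cholesterol and is abundant in sebaceous glands, had -1.43 in WT ear (8.52 FPKM in dermis, 24.6 FPKM in epidermis) and 1.60 in dorsal skin (7.00 and 1.65 FPKM), with -0.92 in Koa ear. Basal keratinocyte markers in the dorsal dermal library had a median share of 43.6% of the epidermal value (9.10% in WT ear), and their part in these values was not tested.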

How the results depend on the processing

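With 1 library per group, the values rest on single samples and the spread between animals is not measured. The 2880 genes higher in dermis became 1579 at a pseudocount of 5 and 1477 at a difference of at least 2, and the 1917 higher in epidermis became 1189 and 582. Under the other alternatives both counts lay within 1.5 times of these: 1937 (filter of 5 FPKM) to 3282 (pseudocount of 0.1) for dermis, and 1614 (equal upper quartiles) to 2694 (keratinocyte share subtracted) for epidermis. None of the 36 list medians or 559 genes of the lists and pairs changed from a call in 1 layer to the other under any alternative run. Of the list medians, 9 crossed the threshold of 1 at a pseudocount of 5, 2 each at 0.1, without the filter and after subtraction of the keratinocyte share, 1 of 33 with a filter of 5 FPKM, and none otherwise. Among the genes, 89 crossed it at a pseudocount of 5, 22 after that subtraction, 14 at 0.1 and 10 under each scaling. No paired analysis was possible because WT ear has 1 library per layer. A fit of layer with the pair as a block over the 6 libraries of the 3 pairs was not run, since it would average over site and genotype. Depth limits genes near the floor, where a value rests on a few fragments.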

Other observations

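Gene families, picked after their values were seen, also divided between the layers of WT ear. The shares over all counted genes, to be read beside each family, were 21.1% higher in dermis and 14.1% in epidermis. Of 25 keratins counted 21 were higher in epidermis and 2 in dermis, Krt8 and Krt20. Krt79, a keratin of the upper follicle, stood at 465 FPKM in epidermis and 39.4 FPKM in dermis, and Krt17 at 306 and 28.7 FPKM. Of 15 clade B serpins 10 were higher in epidermis, while Serpinb1a (38.7 FPKM in dermis, 5.44 FPKM in epidermis) and Serpinb9 (4.64 and 0.976 FPKM), inhibitors of leukocyte proteases, were higher in dermis. The 13 S100 calcium-binding genes split into 6 higher in dermis and 4 in epidermis. S100a4 stood at 2062 FPKM in dermis and 321 FPKM in epidermis, and S100a14 at 18.6 and 291 FPKM. All 10 Toll-like receptor genes were higher in dermis, as were 24 of 27 Cd209 and Clec lectins and 15 of 21 chemokines of the Ccl and Cxcl families. Among 9 Hox genes counted, 4 were higher in epidermis (Hoxa4, Hoxb2, Hoxb3 and Hoxc13) and 3 in dermis (Hoxa2, Hoxd8 and Hoxd9). Hoxa2, a gene of the second pharyngeal arch that forms the outer ear, stood at 19.3 FPKM in dermis and 4.59 FPKM in epidermis. In WT dorsal skin it had the opposite order, 2.61 FPKM in dermis and 7.57 FPKM in epidermis.

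Of 82 cytosolic ribosomal protein genes 67 were higher in epidermis and 2 in dermis (median -1.18), a count that fell to 49 with equal upper quartiles and 57 with the median difference set to 0, with 2 in dermis each time. Beside this, the median was -0.89 for the 12 housekeeping genes and -0.83 for 42 subunit genes of respiratory complex I. Whether the ribosomal genes differ beyond these levels was not tested. Of 76 mitochondrial ribosomal protein genes 15 were higher in epidermis and none in dermis (median -0.75), or 7 and 9 in epidermis under those scalings. Over all genes, 14.1% were higher in epidermis, and 1614 of 13750 and 1701 of 13641 under the scalings. The epidermal counts of this family lie near these shares and are not read as a result about it. Ribosomal protein genes have many processed copies that can take their reads.

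Neighbouring genes shared calls in places. Among 13523 counted genes placed on chromosomes, runs of 6 or more neighbours with the same call numbered 14 for dermis and 4 for epidermis. Over all counted genes 21.1% were higher in dermis and 14.1% in epidermis, so dermal runs had more genes to form from. Genes that were not counted were passed over, so the members of a run need not adjoin. The longest held 14 genes higher in epidermis on chromosome 3 (92080271 to 93526288, GRCm38.p6), from Lor to S100a11, in the epidermal differentiation complex. Next in epidermis came 10 clade B serpins on chromosome 1 (106861175 to 107608978) and 8 keratins on chromosome 15 (101348315 to 101940324), from Krt80 to Krt79. The longest dermal run, 13 genes on chromosome 1 (172630769 to 174921911), held interferon-inducible genes of the Ifi200 family, and another of 8 genes on chromosome 19 (11047612 to 11623790) held Ms4a genes of leukocytes. Close copies within such clusters can share reads, so single values in them are uncertain. Genes higher in dermis had a median span of 27.4 kb, against 17.6 kb for epidermis and 23.3 kb for genes called in neither.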
